A study of Mus musculus with 23 samples.

Results

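Transcripts of the fibroblast growth factor (FGF) receptors and of the FGF ligands that retinal organoids make themselves were measured across day, fatty acid medium and added FGF1. The 10 genes were Fgfr1, Fgfr2, Fgfr3, Fgfr4 and Fgfrl1 on the receptor side, the secreted ligands Fgf1 and Fgf9, and the FGF homologous factors Fgf12, Fgf13 and Fgf14. They were taken by gene name from the 52143 rows of the gene count table, leaving out rows on patch chromosomes, and each name matched 1 row.

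The organoids were grown by a modified HIPRO protocol from mouse induced pluripotent stem cells (iPSCs) that the labels give as 1 clone. The clone was made from fibroblasts of embryonic Nrl-GFP mice, in which the promoter of the rod gene Nrl drives green fluorescent protein, with doxycycline-inducible lentiviral Oct3/4, Sox2, Klf4 and c-Myc. Each library came from neural retina dissected out of pooled organoids, and poly(A) RNA was sequenced in a strand-specific way. From day 10 all cultures received docosahexaenoic acid (DHA) or linoleic acid (LA) at 26 µM on bovine serum albumin (BSA), or BSA alone. At day 26 serum, B27 without vitamin A and non-essential amino acids came in, in all cultures taken further. FGF1 protein at 200 ng/ml was present from day 26 to day 32 in some of them. The groups with FGF1 at day 32 held 2 libraries on DHA, 3 on LA and 3 on BSA. The groups without FGF1 at day 32 held 3 libraries on each medium, and those at day 26, before FGF1 and the medium change, held 2 on each.

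FGFs that are secreted bind cell-surface receptor tyrosine kinases together with heparan sulfate, and the bound receptors signal through FRS2, GRB2 and the RAS-ERK cascade. FGFR1 to FGFR4 carry a kinase domain, whereas FGFRL1 binds FGF without one. FGF1 binds all kinase-bearing FGF receptors, so it is a broad stimulus in culture. FGF9 is secreted by neural retina in the mouse embryo and keeps retina and pigment epithelium apart at their border. FGF12, FGF13 and FGF14 are largely kept inside neurons, where they bind voltage-gated sodium channels, and they are grouped with FGFs by sequence rather than by use of the receptors.

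The 23 libraries fell into 2 sets by depth. A shallower set of 11 libraries held 10405663 to 11888224 counts, with 5.55% to 12.5% of them from mitochondrial genes. A deeper set of 12 libraries held 16029580 to 20510550 counts, with 3.02% to 4.25% from mitochondrial genes. The shallower set was made up of every library without FGF1 at day 32 and of replicate 3 with FGF1 on BSA and on LA. The deeper set was made up of every day 26 library and of replicates 1 and 2 with FGF1. Day 32 without FGF1 and day 26 therefore cannot be told apart from the sets, and were not compared. The authors left 5 libraries out of their normalized table, replicate 1 of each day 32 group without FGF1 and the 2 shallower libraries with FGF1. In those 5 the Y-linked translation factor gene Eif2s3y was at 29.9 to 69.8 CPM (library-scaled counts, TMM), against at most 0.787 CPM in the other 18, although the labels give 1 clone for all. The reason was not tested. Retinal markers were present as labelled: the summed level of 6 photoreceptor markers was 4994 to 9116 CPM at day 32 with FGF1 and 2534 to 3934 CPM at day 26 in the deeper set. Lens markers summed to at most 0.472 CPM at day 32 with FGF1 and 0.375 CPM at day 26.

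The level of each gene relative to the other genes was set by TPM, which divides by transcript length. At day 32 with FGF1 in the deeper set (n = 6), Fgfr1 led with 44.4 ± 8.43 TPM (SD), ahead of Fgf12 with 26.5 ± 5.54, Fgf13 with 26.3 ± 4.59 and Fgf9 with 20.4 ± 3.07 TPM. Below them lay Fgf14 with 13.7 ± 3.59, Fgfr3 with 10.96 ± 4.05, Fgfrl1 with 10.4 ± 4.79, Fgfr2 with 5.94 ± 5.36, Fgf1 with 4.26 ± 3.00 and Fgfr4 with 1.09 ± 0.601 TPM. Fgfr1 and Fgf12 were the only neighbours in that order whose libraries did not overlap. At day 26 (n = 6) the head of the order was shared, with Fgf12 at 29.2 ± 3.29, Fgfr1 at 27.5 ± 3.12, Fgfr3 at 25.7 ± 3.85, Fgf13 at 24.0 ± 4.36 and Fgf9 at 18.7 ± 2.84 TPM. Below these lay Fgf14 at 9.69 ± 1.07, Fgfrl1 at 7.33 ± 0.936, Fgfr2 at 5.53 ± 2.35, Fgfr4 at 3.38 ± 1.38 and Fgf1 at 0.832 ± 0.539 TPM. Only Fgf9 and Fgf14 were neighbours without overlap there. TPM rests on transcript counts, which for some genes fell short of the gene counts. At day 26 Fgf1 averaged 15.3 transcript and 33.1 gene counts, and Fgfr3 575 and 719. At day 32 with FGF1 in the deeper set Fgf1 averaged 117 and 123, and Fgfr3 234 and 268. In the 6 shallower libraries without FGF1 that the authors kept, the neuronal factors stood at the head, Fgf12 at 50.04 ± 9.33 and Fgf13 at 47.4 ± 8.45 TPM, and Fgfr1 was at 14.1 ± 6.32 TPM.

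**Figure D1:**
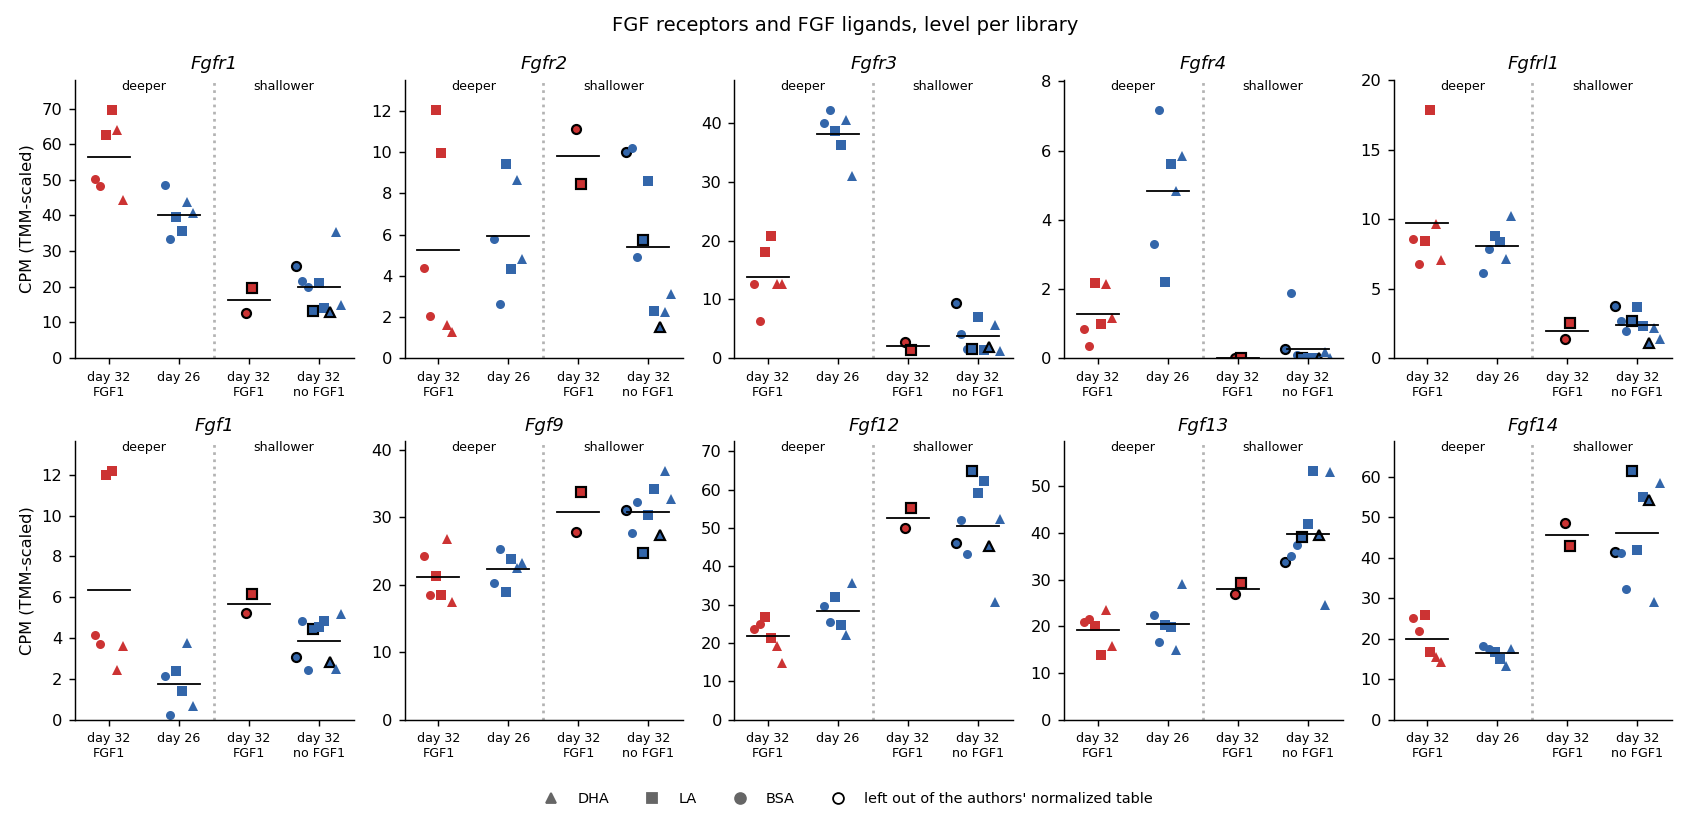
Level of each of the 10 genes in every library, in CPM on a linear axis, 1 panel per gene. Points are libraries, bars are group means, black outlines mark the 5 libraries the authors left out, and the dividing line separates the deeper set (left) from the shallower set (right). Fgfr3 and Fgfr4 were lower at day 32 with FGF1 than at day 26 in every deeper library, and Fgfr3 and Fgfrl1 were lower in every shallower library with FGF1 than in every deeper one.

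In the deeper set, 6 libraries of day 32 with FGF1 were set against 6 of day 26, with the media as separate terms. Time in culture, the change of medium and FGF1 differ together in this comparison and cannot be told apart. Fgfr3 and Fgfr4 fell and Fgfr1 and Fgf1 rose, while the other 6 genes did not pass the test. That is 4 of 10 genes called by the edgeR quasi-likelihood test at a Benjamini-Hochberg adjusted p under 0.05, against 28.7% of the 20111 genes tested. With 2 genes called in each direction, against 14.6% of genes higher and 14.1% lower, the count is close to the background of this comparison. The median log2 fold change was -0.06 over the 10 genes and 0.00266 over all genes. P-values measure the spread between these libraries, which the labels call biological replicates.

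Fgfr3, a receptor of progenitors and glia in the developing nervous system, fell to 6.29, 12.7 and 20.9 CPM (lowest, median, highest) at day 32 with FGF1, against 31.1, 39.3 and 42.4 CPM at day 26. The groups did not overlap, and the spread in the day 32 libraries covered a larger fold range. The log2 fold change was -1.50 (SE 0.158), with an edgeR adjusted p of 4.616e-05. As in any bulk sample, fewer cells of a type that uses the gene and less RNA per cell cannot be told apart. The summed level of 6 markers of Müller glia and progenitors moved the other way, to 944 to 1413 CPM at day 32 with FGF1 against 415 to 609 CPM at day 26, and 4 of the 6 rose. The part of cell makeup in the receptor's fall was not tested.

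Fgfr4, the receptor used by FGF19-type hormones in liver, was the lowest of the kinase-bearing receptors. It fell to 0.352, 1.08 and 2.17 CPM at day 32 with FGF1 (8 to 43 counts per library), against 2.21, 5.23 and 7.19 CPM at day 26 (41 to 137 counts). The groups adjoined but did not overlap. The log2 fold change was -2.02 (SE 0.346), with an edgeR adjusted p of 0.00121.

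Fgfr1, the receptor at the highest level and the main FGF receptor of neural tissue, was higher at day 32 with FGF1, at 44.3, 56.4 and 69.7 CPM, against 33.5, 40.0 and 48.4 CPM at day 26. The groups overlapped, since the lowest library with FGF1 lay below the highest at day 26. The log2 fold change was 0.50 (SE 0.123), with an edgeR adjusted p of 0.00998. When all 23 libraries were fitted with a term for the set, the value stayed at 0.49 and the call was lost, with an adjusted p of 0.124.

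Fgfr2, whose splice forms serve epithelium and mesenchyme, spread widely in both groups. It lay at 1.28, 3.23 and 12.1 CPM at day 32 with FGF1, against 2.62, 5.32 and 9.45 CPM at day 26. The log2 fold change of -0.62 had an interval of -1.27 to 0.03 and an edgeR adjusted p of 0.140. Fgfrl1, the receptor without a kinase, lay at 6.78, 8.50 and 17.9 CPM at day 32 with FGF1, against 6.14, 8.09 and 10.2 CPM at day 26. Its log2 fold change was 0.25, with an edgeR adjusted p of 0.369, and the groups overlapped.

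The endogenous Fgf1 gene, whose protein lacks a classical signal peptide, rose at low counts. It was at 2.43, 3.92 and 12.2 CPM at day 32 with FGF1 (49 to 232 counts), against 0.210, 1.77 and 3.76 CPM at day 26 (4 to 70 counts). The groups overlapped, and both LA libraries with FGF1 stood above all others at 12.0 and 12.2 CPM. The log2 fold change was 1.63 (SE 0.446), with an edgeR adjusted p of 0.0171. Without replicate 1 of day 26 on BSA it was 2.45, and with sums of transcript counts in place of gene counts it was 2.64. Added FGF1 was protein, so it contributes no transcript to these counts.

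Fgf9, the ligand of the neural retina, was steady at 17.4, 19.9 and 26.8 CPM at day 32 with FGF1, against 18.9, 22.8 and 25.3 CPM at day 26. Its log2 fold change of -0.06 had the narrow interval of -0.36 to 0.24, with an edgeR adjusted p of 0.786. The ranges almost coincided.

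The intracellular factors Fgf12, Fgf13 and Fgf14 were each expressed at near 20 CPM, and none passed the test. Fgf12 was at 14.9, 22.4 and 26.8 CPM at day 32 with FGF1, against 22.0, 27.6 and 35.6 CPM at day 26, with a log2 fold change of -0.37 (interval -0.68 to -0.06, edgeR adjusted p 0.0731). Fgf12 was called lower with no filter on low counts (adjusted p 0.0293) and with sums of transcript counts (adjusted p 0.0272). Fgf13 was at 14.0, 20.5 and 23.4 CPM with FGF1, against 15.0, 20.1 and 29.05 CPM at day 26, a log2 fold change of -0.07 (interval -0.46 to 0.32). Fgf14 was at 14.2, 19.3 and 25.9 CPM with FGF1, against 13.2, 17.2 and 18.3 CPM at day 26, a log2 fold change of 0.28 (interval -0.01 to 0.57). The groups overlapped for all 3 genes.

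**Figure D2:**
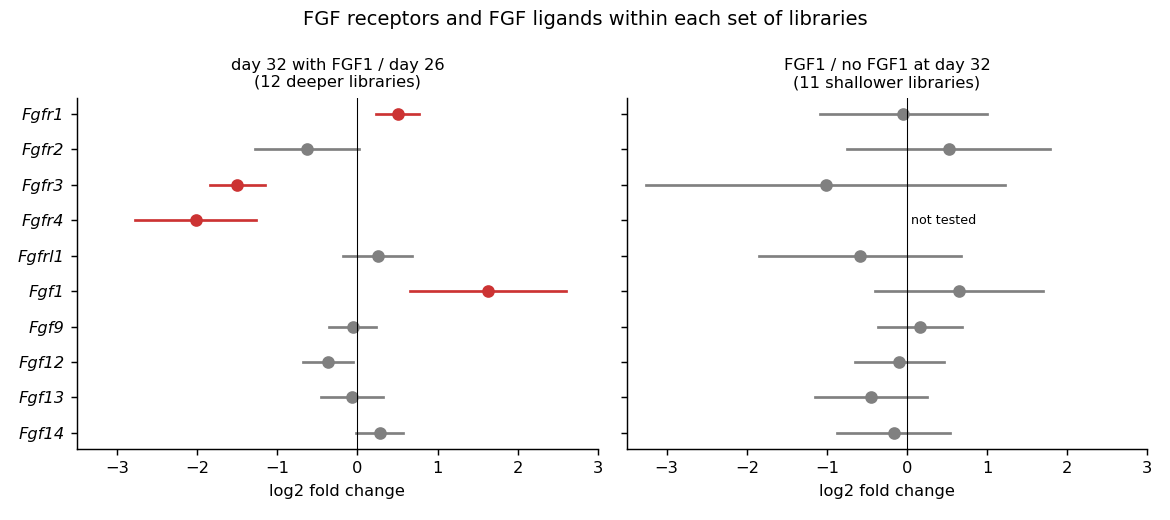
Log2 fold change of each gene with its 95% interval in the comparison of day 32 with FGF1 against day 26 (deeper set) and of FGF1 against no FGF1 (shallower set), 1 row per gene. Red marks an adjusted p under 0.05. Fgfr3 at -1.50 and Fgfr4 at -2.02 lay farthest below 0 and Fgf1 at 1.63 farthest above it, while no interval of the shallower comparison was red.

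The media were then taken 1 at a time, with 2 libraries a group. On DHA 2 of the 10 genes were called, against 10.4% of genes; on LA 1, against 5.16%; and on BSA 2, against 6.83%. Fgfr3 had log2 fold changes of -1.50 on DHA (edgeR adjusted p 0.00581), -0.91 on LA (adjusted p 0.0767) and -2.10 on BSA (adjusted p 0.00168). Fgfr4 had -1.68 on DHA (edgeR adjusted p 0.0892), -1.25 on LA (adjusted p 0.259) and -3.12 on BSA (adjusted p 0.0139). The estimates were below 0 in every medium for both receptors. Fgfr1 had 0.36 on DHA (edgeR adjusted p 0.321), 0.85 on LA (adjusted p 0.0412) and 0.29 on BSA (adjusted p 0.492). Fgf1 had 0.43 on DHA, 2.71 on LA and 1.76 on BSA, and none of these passed (smallest edgeR adjusted p 0.0661).

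Fgfr2 behaved differently in the media by its own estimates. On DHA it fell to 1.59 and 1.28 CPM at day 32 with FGF1, against 8.65 and 4.82 CPM at day 26, a log2 fold change of -2.22 (edgeR adjusted p 0.0243). On LA it was at 12.1 and 9.97 CPM with FGF1, against 9.45 and 4.31 CPM at day 26, a log2 fold change of 0.72 (edgeR adjusted p 0.465). On BSA it was at 4.40 and 2.07 CPM with FGF1, against 5.81 and 2.62 CPM at day 26, a log2 fold change of -0.37 (edgeR adjusted p 0.744). The day 32 DHA libraries were the lowest of the 12, and the LA libraries of the same day were the highest. The difference in fold change between DHA and LA was -2.94.

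The test of that difference across the media called none of the 20111 genes (0%) with edgeR, and 720 genes had an unadjusted p under 0.05. Fgfr2 had the smallest unadjusted p of the 10 genes, 0.00628, and Fgfr3 the next, 0.0289, both with an edgeR adjusted p of 1. DESeq2 called 14 genes and limma voom 0, with none of the 10 genes among them. With no filter on low counts edgeR called 342 genes, among them Fgfr2 (adjusted p 1.508e-05) and Fgf1 (adjusted p 0.0215). The call for Fgfr2 thus turns on the filter.

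**Figure D3:**
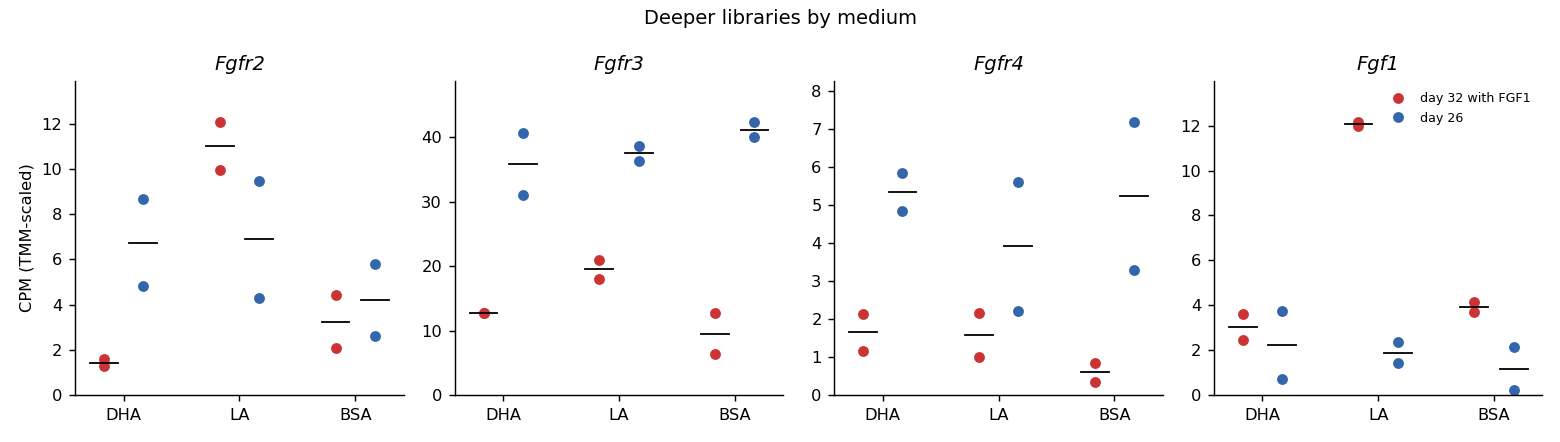
Levels of Fgfr2, Fgfr3, Fgfr4 and Fgf1 in CPM in each deeper library, by medium (DHA, LA, BSA) and by state (day 32 with FGF1 left of day 26), with bars at the group means. On DHA, Fgfr2 was at 1.59 and 1.28 CPM with FGF1 against 8.65 and 4.82 CPM at day 26, and both LA libraries with FGF1 were the highest for Fgf1.

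Markers of other tissues moved with Fgfr2. At day 32 with FGF1 in the deeper set, 4 mesenchyme markers (Col1a1, Col3a1, Dcn and Lum) summed to 5.69 to 11.7 CPM on DHA, 42.9 to 263 CPM on LA and 12.5 to 15.5 CPM on BSA. In the same libraries 4 pigment epithelium markers (Rpe65, Tyr, Pmel and Mitf) summed to 7.26 to 7.94 CPM on DHA, 26.2 to 48.5 CPM on LA and 14.6 to 14.9 CPM on BSA. Both sums followed the order of Fgfr2 across the media. At day 26 the mesenchyme sum was 11.3 to 27.0 CPM on DHA, 30.0 to 46.4 CPM on LA and 6.29 to 21.3 CPM on BSA, and the pigment sum was 40.0 to 48.5 CPM on DHA, 18.7 to 78.0 CPM on LA and 7.60 to 32.8 CPM on BSA. Their part in the level of Fgfr2 was not tested.

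DHA, LA and BSA were also compared over all 23 libraries within blocks that share a day, an FGF1 state and a replicate number. None of 21124 genes passed in any of these comparisons (0%) with edgeR. At an unadjusted p under 0.05 the DHA against LA comparison had 1012 genes, that of DHA against BSA 462 and that of LA against BSA 723. DESeq2 called 10, 2 and 12 genes and limma voom 0, 1 and 1 in the same order, none of them among the 10. For DHA against LA, Fgfr2 had a log2 fold change of -1.20 (interval -2.14 to -0.26, unadjusted p 0.0150), Fgf1 -0.80 (-1.49 to -0.12), Fgfrl1 -0.52 (-1.01 to -0.03) and Fgf12 -0.37 (-0.68 to -0.07), all with edgeR adjusted p of at least 0.994. For LA against BSA, Fgf1 had 0.92 (interval 0.28 to 1.56, unadjusted p 0.00704, edgeR adjusted p 0.981). In the 18 libraries the authors kept, these values were -1.20, -0.89, -0.42 and -0.35, and 1.11 for LA against BSA. The other 6 genes had intervals that spanned 0 in the DHA against LA comparison, with Fgf9 the narrowest at -0.11 to 0.31.

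At day 32 with FGF1 alone, the largest difference between media was that of Fgfr2 on DHA against LA. It was 1.59 and 1.28 CPM on DHA and 12.1 and 9.97 CPM on LA, a log2 fold change of -2.98 (SE 0.551, unadjusted p 0.000177, edgeR adjusted p 0.178). The comparison called 2 of 20111 genes (0.00994%), neither of them among the 10. LA against BSA called 3 (0.0149%), none among the 10, and Fgfr2 had 1.79 there (edgeR adjusted p 0.719). At day 26 the Fgfr2 difference of DHA against LA was -0.04, and that of LA against BSA was 0.71, with neither called. Without FGF1 at day 32, in the shallower set, Fgfr2 was at 1.52, 2.22 and 3.12 CPM on DHA, 5.75, 8.60 and 2.30 CPM on LA and 10.00, 10.2 and 4.89 CPM on BSA. There too the 3 DHA libraries stood low, with 1 LA library among them.

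FGF1 against no FGF1 at day 32 could be tested in the shallower set, with 2 libraries with FGF1 and 9 without. Both libraries with FGF1 were left out by the authors, so the fit carried a term for left-out libraries. None of 18029 genes passed (0%) with edgeR, with 342 at an unadjusted p under 0.05, and DESeq2 called 7 and limma voom 0. None of the 9 tested genes of interest passed, and Fgfr4 had too few counts to be tested. Fgfr1 was at 12.8 and 19.6 CPM with FGF1, against 13.0 to 25.9 CPM in the 3 left-out libraries and 14.1 to 35.2 CPM in the 6 kept libraries without FGF1. Its log2 fold change of -0.05 had an interval of -1.09 to 1.00. Fgfr3 was at 2.81 and 1.43 CPM with FGF1, against 1.49 to 9.32 and 1.14 to 6.94 CPM without, a log2 fold change of -1.01 (interval -3.25 to 1.23). For Fgfr1, 1 library with FGF1 lay just below the range without it, and for Fgfr3 both lay inside it.

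For Fgf9 and the intracellular factors, but not for Fgf1, the intervals were narrower than those of Fgfr1 and Fgfr3. Fgf9 had a log2 fold change of 0.16 (interval -0.37 to 0.68), Fgf12 -0.10 (-0.65 to 0.46), Fgf14 -0.17 (-0.87 to 0.54), Fgf13 -0.45 (-1.15 to 0.25) and Fgf1 0.65 (-0.40 to 1.70). Fgf1 was at 5.22 and 6.16 CPM with FGF1, against 2.82 to 4.47 CPM in left-out and 2.45 to 5.20 CPM in kept libraries without it. Fgfr2 had 0.52 (-0.74 to 1.79) and Fgfrl1 -0.59 (-1.85 to 0.68). Fgfr4 had 0 counts in both libraries with FGF1 and 0 to 1.88 CPM in those without. The median distance from a fold change to its interval's end was 0.994 over all genes here and 0.347 in the day 32 against day 26 comparison.

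The left-out libraries were compared with the kept ones within the same set. Of 18029 genes 57 passed (0.316%), 55 of them higher (0.305%) and 2 lower (0.0111%) in left-out libraries, and none was among the 9 tested genes of interest. The largest estimates were -0.29 for Fgfr1 and 0.28 for Fgf14, with an edgeR adjusted p of 1.00 for each.

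The sets differed at matched treatment. With day, FGF1 and medium held the same (day 32 with FGF1 on BSA or LA), 2 shallower and 4 deeper libraries could be set side by side. Fgfr1 averaged 16.2 CPM in shallower and 57.7 CPM in deeper libraries, Fgfr3 2.12 and 14.5 CPM, and Fgfrl1 1.97 and 10.4 CPM. Their log2 differences (pseudocount 0.5) were -1.80, -2.52 and -2.15. Fgfr4 had no count in the shallower libraries and 1.09 CPM in the deeper ones, at least 3.30-fold lower against a floor of 3 counts per library. The receptors other than Fgfr2 did not overlap between the sets. For Fgfr4 the lowest deeper library, at 0.352 CPM, lay just above the highest of these floors, 0.330 CPM. The share of all genes without overlap was not computed, and with 2 against 4 libraries separation alone says little. Among genes with enough counts here, 13.2% had a lower difference than Fgfr1, 6.6% than Fgfr3 and 9.44% than Fgfrl1. Fgfr4 had enough counts only through the deeper libraries. Its log2 difference of -1.67 is bounded by the pseudocount and is not ranked here.

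Fgf12, Fgf14, Fgf9 and Fgf13 went the other way, with log2 differences of 1.11, 1.01, 0.57 and 0.54 and no overlap. Of the genes with enough counts, 84.4%, 82.1%, 70.1% and 69.1% had a lower difference than these, in the same order. Fgf12 averaged 52.6 CPM in shallower and 24.2 CPM in deeper libraries, and Fgf14 45.7 and 22.4 CPM. Fgfr2 (0.43) and Fgf1 (-0.46) overlapped. The genes lower in the shallower set were rich in G and C: Fgfr4 had a GC content of 58.8%, Fgfrl1 58.1%, Fgfr3 56.1% and Fgfr1 54.9%. The genes higher there were Fgf13 at 43.7%, Fgf9 at 43.3%, Fgf12 at 41.7% and Fgf14 at 40.8%, and Fgfr2 at 49.7% and Fgf1 at 47.8% lay between them. Across the 10 genes the Pearson correlation of the set difference with GC content was -0.939, and across 19244 genes it was -0.72, with a slope of -1.65 log2 units per 10 points of GC. These are correlations across genes of the same 6 libraries, given as descriptions. The value over the 10 genes includes Fgfr4, whose difference is bounded by the pseudocount. The fold change of day 32 with FGF1 against day 26, made within the deeper set, had a correlation with GC content of -0.391 over the 10 genes and -0.0335 over 19841 genes.

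**Figure D4:**
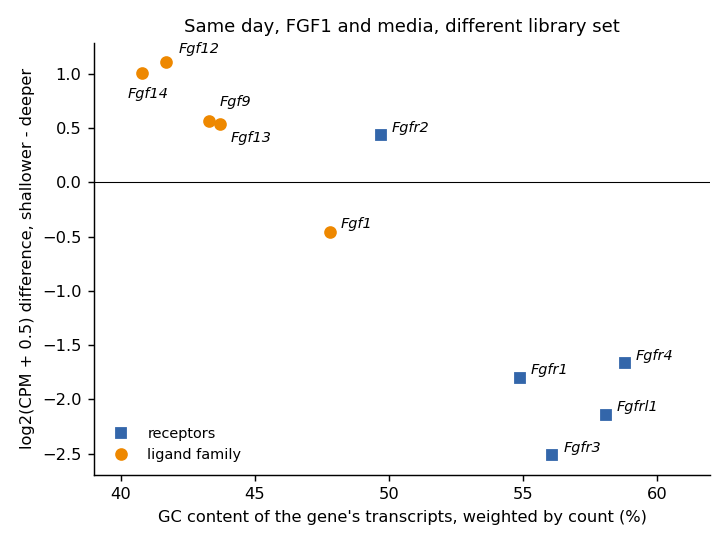
Difference of log2(CPM + 0.5) between shallower and deeper libraries with FGF1 at day 32 on BSA or LA, against the GC content of each gene's transcripts in percent. Squares are receptors and circles the ligand family, with each of the 10 genes labelled. Fgfr1, Fgfr3, Fgfr4 and Fgfrl1, at 54.9% to 58.8% GC, lay between -1.67 and -2.52, and Fgf12 and Fgf14, at 41.7% and 40.8% GC, lay at 1.11 and 1.01. Fgfr4 had no count in the shallower libraries, so its value of -1.67 is bounded by the pseudocount.

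The sets also differed in which transcripts of the intracellular factors were counted. Each of these genes has several first exons that give the protein its own amino end, joined to a shared core, and the forms are known to differ in where they lie in the neuron and in how they act on the channel. The coding starts of the coding forms with at least 10% of their gene's count in a set are shown here to tell these forms apart. They are taken from GENCODE M21 (GRCm38, minus strand, 5′ to 3′). Capitals mark the first 21 bases of the stretch that the shown forms of a gene have in common up to their coding end. Lower case marks the bases before it. The first capitals can still lie in a form's own first coding exon, where its bases match those of the other forms.
Fgf12-201: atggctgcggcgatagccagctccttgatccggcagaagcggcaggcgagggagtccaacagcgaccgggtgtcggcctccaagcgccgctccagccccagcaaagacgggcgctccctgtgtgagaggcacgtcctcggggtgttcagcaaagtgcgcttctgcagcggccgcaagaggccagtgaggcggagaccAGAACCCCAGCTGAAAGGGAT
Fgf12-205: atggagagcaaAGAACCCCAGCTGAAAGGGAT
Fgf13-201: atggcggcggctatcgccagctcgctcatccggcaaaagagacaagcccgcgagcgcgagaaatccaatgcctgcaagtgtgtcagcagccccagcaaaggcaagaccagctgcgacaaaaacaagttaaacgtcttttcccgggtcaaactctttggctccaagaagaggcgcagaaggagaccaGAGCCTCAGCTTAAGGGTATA
Fgf13-202: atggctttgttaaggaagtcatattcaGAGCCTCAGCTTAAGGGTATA
Fgf13-203: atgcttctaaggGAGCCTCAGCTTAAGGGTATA
Fgf14-201: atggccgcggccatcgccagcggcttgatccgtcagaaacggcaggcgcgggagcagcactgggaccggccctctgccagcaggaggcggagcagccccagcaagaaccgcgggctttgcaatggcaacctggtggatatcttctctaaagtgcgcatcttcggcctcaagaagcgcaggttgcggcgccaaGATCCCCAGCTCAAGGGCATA
Fgf14-202: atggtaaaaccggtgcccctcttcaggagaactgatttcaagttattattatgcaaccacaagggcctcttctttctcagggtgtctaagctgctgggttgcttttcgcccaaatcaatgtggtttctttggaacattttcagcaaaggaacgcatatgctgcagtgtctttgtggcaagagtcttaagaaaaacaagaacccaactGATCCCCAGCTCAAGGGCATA
Fgf12-201 starts in the exon at chr16:28444993-28445191 and codes for 243 codons, Fgf12-205 at chr16:28752834-28752846 for 181 codons. For Fgf13 the starts lie at chrX:59133877-59134063 (Fgf13-201, 245 codons), chrX:59166013-59166040 (Fgf13-202, 192 codons) and chrX:59567140-59567151 (Fgf13-203, 187 codons). For Fgf14 they lie at chr14:124192329-124192521 (Fgf14-201, 247 codons) and chr14:124676510-124676717 (Fgf14-202, 252 codons). The stop codon is not counted. Fgf12-206 is annotated as a processed transcript with no coding sequence.

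Fgf14-202, the form with the upstream start, took a median of 97.8% of the Fgf14 count in shallower libraries (range 87.4% to 100%) and 28.3% in deeper ones (22.1% to 49.5%). Fgf14-201 took 2.21% (0% to 12.6%) and 71.7% (50.5% to 77.9%). The 2 ranges did not overlap for either form. For Fgf13, Fgf13-202 took 62.8% (33.7% to 90.2%) in shallower and 0% (0% to 21.1%) in deeper libraries, while Fgf13-203, with the shortest own stretch, took 28.3% (4.82% to 56.4%) and 61.8% (46.6% to 72.3%). Fgf13-201 took 3.35% (0% to 14.8%) and 16.6% (5.28% to 36.8%). For Fgf12, Fgf12-206 took 67.1% (48.3% to 78.7%) in shallower and 4.59% (0% to 19.3%) in deeper libraries, and Fgf12-201 took 12.0% (6.19% to 23.1%) and 62.2% (48.2% to 68.3%). Fgf12-205 took 18.6% (8.39% to 32.9%) and 26.5% (20.7% to 31.7%). Fgf13-207, a processed transcript, held 1.35% of pooled Fgf13 counts in the shallower set and 10.1% in the deeper set. Receptor transcripts differed as well. Of pooled counts, Fgfr2-217 held 63.1% of Fgfr2 in the shallower set and 7.08% in the deeper set, and Fgfrl1-202 held 92.2% and 12.9% of Fgfrl1. The GC content was 35.3% for Fgf12-206 and 43.7% for Fgf12-201, and 40.65% for Fgf13-202 and 43.4% for Fgf13-203. For Fgfr2-217 it was 45.5%, against 50.1% for Fgfr2-207. For Fgfrl1-202 it was 59.45%, against 57.75% for Fgfrl1-201. The part of GC content in these shares was not tested.

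**Figure D5:**
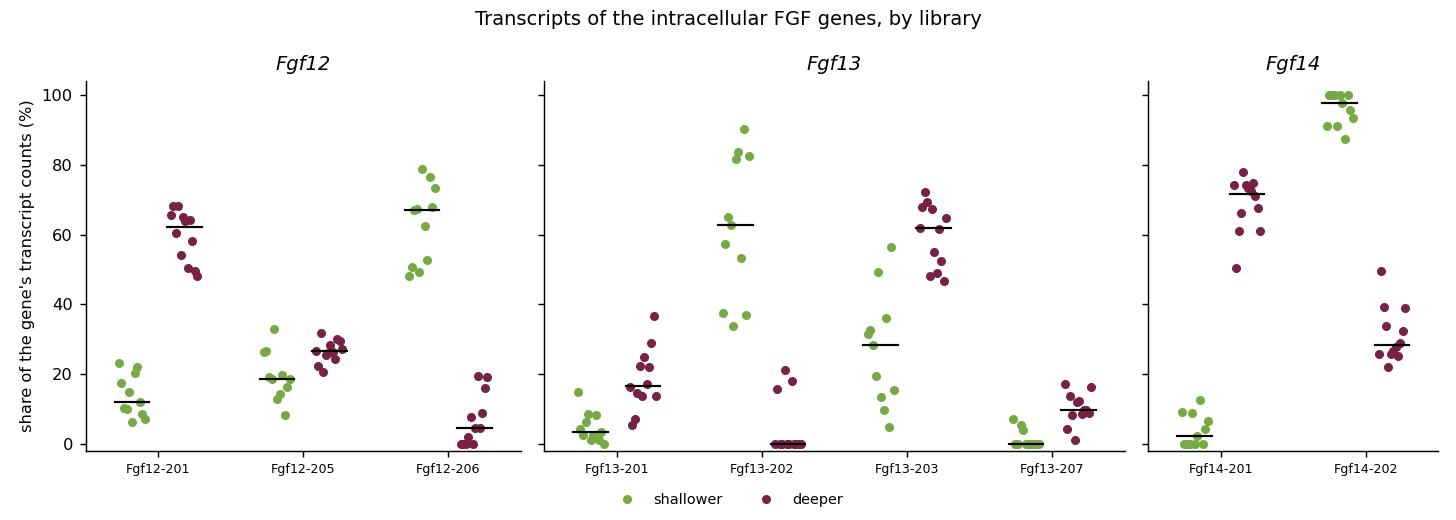
Share of the gene's count, in percent, held by each named transcript of Fgf12, Fgf13 and Fgf14 in every library, shallower libraries left of deeper ones, with bars at the medians. The shares of Fgf14-202 (97.8% and 28.3%) and Fgf12-206 (67.1% and 4.59%) changed places with Fgf14-201 and Fgf12-201 between the sets.

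Within the deeper set, transcripts were tested for day 32 with FGF1 against day 26. Of 99 transcripts of the 10 genes 45 had enough counts, and 5 of them passed, against 7.86% of the 62693 transcripts tested (4.36% higher and 3.49% lower). Fgfr3-215, Fgfr3-217, Fgfr4-201 and Fgf12-204 fell, with log2 fold changes of -1.53, -1.88, -1.59 and -1.44 (edgeR adjusted p 0.0153 to 0.0419). Fgfr3-201 was called higher, with a mean of 33.7 counts at day 32 with FGF1 and 0.260 counts at day 26. It had enough counts only through the day 32 libraries, where it was high, so its call is not used as support. Fgfr3-211 went the other way, with means of 6.21 and 56.8 counts, and did not pass. Fgfr3-217, Fgfr3-201 and Fgf12-204 held under 10% of their gene's count in both sets and are named here after their values were seen. Their calls were not followed in the refits without 1 library. Fgfr3-215 held 46.1% of the Fgfr3 count at day 32 with FGF1 and 50.2% at day 26, and Fgfr3-201 held 14.4% and 0.0453%. Leaving out 1 library lost the call of Fgfr3-215 in 10 of 12 refits and that of Fgfr4-201 in 8 of 12. None of the named Fgf12, Fgf13 or Fgf14 forms passed in this comparison.

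The rest of the pathway was described from lists of genes in the day 32 with FGF1 against day 26 comparison. Of all genes tested there, 14.6% were called higher and 14.1% lower. Of 17 other FGF ligands 9 had enough counts, 1 rose and 1 fell, with a median log2 fold change of 0.09. Fgf2, a ligand without a signal peptide like Fgf1, averaged 140 ± 63.1 CPM at day 32 with FGF1 and 1.90 ± 0.515 CPM at day 26 (SD, n = 6 each), a log2 fold change of 6.202 (edgeR adjusted p 1.055e-06). In the shallower set Fgf2 was at 135.5 and 159.6 CPM with FGF1, against 126 to 440 CPM in the 9 libraries without it, with a log2 fold change of -0.03. Fgf15, a ligand of retinal progenitors, fell to 2.29 ± 1.64 CPM at day 32 with FGF1, against 23.8 ± 8.95 CPM at day 26, a log2 fold change of -3.53 (edgeR adjusted p 0.0001009). Fgf23, a hormone, was at 1.03 ± 0.512 CPM with FGF1 and 0.524 ± 0.218 CPM at day 26 and did not pass (edgeR adjusted p 0.120).

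Feedback targets of FGF signalling were the list with the most calls. All 14 had enough counts, 11 rose and 0 fell, against 14.6% of all genes higher and 14.1% lower. The median log2 fold change was 1.27, against 0.00266 over all genes. Spry1, Spry4 and Spry2, which damp the signal from receptor to ERK, had log2 fold changes of 1.92, 1.48 and 1.44. Spry1 averaged 21.2 ± 3.86 CPM at day 32 with FGF1 and 5.66 ± 0.781 CPM at day 26. In the shallower set none of the 14 passed for FGF1 against no FGF1, 10 leaned higher, and the median was 0.26, against -0.03 over all genes. The share of all genes leaning higher was not computed. There Etv1 had 0.81 (unadjusted p 0.0217), Dusp6 0.39 and Spred1 0.47, all with edgeR adjusted p of 1.00. Both libraries with FGF1 were left out, so these estimates depend on the left-out term. Of the 14 targets only Etv4 (0.49) and Il17rd (0.24) had higher estimates in left-out libraries. All the others had lower ones, with Fos (-1.54), Egr1 (-0.95), Spry1 (-0.46) and Spry2 (-0.41) the lowest. A left-out term below 0 raises the FGF1 estimate of the same gene in this fit. None of these passed. Without that term, Spry1 averaged 8.53 CPM with FGF1 and 11.02 CPM without, and Spry2 39.9 and 42.6 CPM. Spry4 averaged 15.4 and 13.6 CPM.

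For day 32 with FGF1 against day 26, the shares of all genes called were 14.6% higher and 14.1% lower. The small counts of the next lists are not read as results about those lists. Of 17 coreceptors, carriers and modulators 15 were tested, 2 rose and 4 fell, with a median of -0.06. The heparan sulfate core proteins Gpc2 and Gpc3 had log2 fold changes of -1.07 and 0.83, and Flrt2, a membrane protein that binds FGF receptors, had -0.92. Of 15 genes of heparan sulfate synthesis 2 rose and 2 fell. Sulf1, which strips sulfates from the chains, was at 70.7 ± 9.37 CPM at day 32 with FGF1 and 17.01 ± 5.85 CPM at day 26, a log2 fold change of 2.10. Ndst3, a sulfotransferase, had -1.15 and the polymerase Ext1 had 0.49. Of 18 adaptors and kinases of the ERK cascade 1 rose and 2 fell, with Plcg1 at -0.48 and Mapk3 at -0.42. Of 9 sodium channel subunits, the partners of the intracellular factors, 8 were tested, 2 rose and 1 fell. Scn8a had 0.54 and Scn3b -0.56. In the shallower set none of these lists held a gene that passed for FGF1.

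Markers of other cell types moved in the comparison of day 32 with FGF1 against day 26, which called 14.6% of all genes higher and 14.1% lower. Astrocyte markers rose, 4 of 4, with sums of 45.8 to 534 CPM at day 32 with FGF1 against 9.23 to 31.6 CPM at day 26. Epithelial markers fell, 4 of 4, with sums of 25.4 to 58.0 CPM against 65.2 to 110 CPM. Photoreceptor markers rose in 4 of 6, and amacrine and ganglion markers fell in 2 of 4 and 1 of 4. Of 4 bipolar markers 3 rose (Grm6, Cabp5 and Vsx1, with log2 fold changes of 6.77, 3.10 and 3.63) and Otx2 fell (-0.74). Of 4 horizontal cell markers Prox1 and Lhx1 rose and Onecut1 fell, and of 3 pigment epithelium markers tested Pmel (-2.53) and Tyr (-2.03) fell. Mesenchyme markers passed in 0 of 4 at an adjusted p under 0.05, with sums of 5.69 to 263 CPM at day 32 with FGF1 and 6.29 to 46.4 CPM at day 26. Their part in the changes of the receptors was not tested.

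The genes whose levels followed each of the 10 most closely were found by the lower of 2 Pearson correlations of log2(CPM + 1), over the 12 deeper and over the 11 shallower libraries. These are descriptions over libraries that share day, medium and depth set. Fgfr2 was most like Ahnak (0.887 deeper, 0.920 shallower), the melanosome gene Tyrp1 (0.902 and 0.869) and the matrix gene Fbn1 (0.846 and 0.844). Fgfr3 was most like Idh2 (0.912 and 0.935), Usp11 (0.898 and 0.921) and Lrp4 (0.899 and 0.896). Fgfr1 was most like Sorbs3 (0.885 and 0.899), Inf2 and Cpxm1. Fgfr4 followed Tbc1d31 (0.829 and 0.727) and Bcl2l12, but it had 0 counts in 7 of the 11 shallower libraries and 19 counts in replicate 2 of BSA without FGF1, so its shallower values rest on that library. Fgfrl1 followed Fbxo2 (0.769 and 0.725), Adcyap1r1 and Mbp.

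Among the ligands, Fgf1 was most like the transporter gene Slco1c1 (0.842 and 0.860), Piezo2 and Cd302, and Fgf9 was most like Pced1a (0.782 and 0.837), Rnf44 and Rnf165. The intracellular factors stood beside neuronal genes. Fgf14 was most like Necab1 (0.872 and 0.944), the glutamate receptor gene Gria4 (0.861 and 0.921) and Nrg3. Fgf12 was most like Lrrn3 (0.910 and 0.835) and the growth cone gene Gap43, and Fgf13 was most like Nrsn1 (0.848 and 0.883), Rab3c and Rcan2.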

How the data were processed

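The build was GRCm38.p6 and the tools were kallisto 0.45.0, Trimmomatic 0.36 and edgeR, per the submitters' processing notes. The gene and transcript tables deposited by the authors hold expected counts for 23 libraries. The authors' other table, a signal in normalized CPM for 18 libraries, supplied gene names and positions and showed which 5 libraries were left out.

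Expected counts were rounded and filtered with filterByExpr, TMM-scaled, and tested on the whole table by edgeR 4.0.16's quasi-likelihood (QL) method. Benjamini-Hochberg adjustment ran over all features tested, with calls at an adjusted p under 0.05. Standard errors and 95% intervals come from the fold change, the F statistic and the t distribution, and are approximate. TPM was computed from transcript counts and annotated length (GENCODE M21, which holds 134456 of 136550 transcripts), as was GC content. Other tools were R 4.3.3, limma 3.58.1 (voom), DESeq2 1.42.0, matplotlib 3.10.9 and Python 3.11.15. The scripts were tested on simulated counts.

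Named were all 10 genes, up to 3 tested genes per list with the smallest p, the 3 genes most alike each gene, and transcripts with at least 10% of their gene's count in a set. Some genes that this rule names are not reported here. The genes, lists, comparisons and alternatives were chosen with earlier results of these data known. The alternative with sums of transcript counts was added after the files were read. Libraries of 1 group differed far beyond sampling noise, so none was counted as a duplicate. Intervals and floors cover the spread or the counting error of these libraries only.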

Additional observations from a re-analysis of the deposited data

How the results depend on the processing

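Of the calls in day 32 with FGF1 against day 26, Fgfr3, Fgfr4 and Fgf1 kept direction and call under every alternative run, and Fgfr1 lost its call only with all 23 libraries and a term for the set. Leaving out 1 library gave log2 fold changes of -1.70 to -1.36 for Fgfr3, -2.27 to -1.76 for Fgfr4, 0.40 to 0.60 for Fgfr1 and 1.34 to 2.45 for Fgf1. No called result reversed. With sums of transcript counts Fgfr4 was at -1.63, and with no filter Fgfr2 (adjusted p 0.0135) and Fgf12 were called as well. The all-gene count of 5773 became 3656 with all 23 libraries and a term for the set, and 4326 to 5899 without 1 library. The 4 genes called of 10 ranged from 4 to 5 without 1 library. The cause of these shifts was not tested.

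With a replicate block the count was 5155, with 4 of the 10 genes called. Same-numbered libraries at day 32 with FGF1 and day 26 had correlations of deviations of 0.109 on BSA, 0.0624 on LA and -0.0928 on DHA. With 2 libraries a group both numbers give the same value, so each medium has only 1. These values did not show pairing by number in this comparison and cannot exclude it. Between media at 1 day and FGF1 state the correlations ran from -0.302 (DHA and BSA without FGF1) to 0.832 (LA and BSA with FGF1 at day 32). For LA and BSA with FGF1 at day 32 all 3 same-numbered pairs were over 0.1 (0.693 to 0.832). Those groups hold both depth sets, replicate 3 being the shallower library, and deviations were taken from the mean of the whole group. The set difference therefore enters these values, and they cannot show pairing by number. For DHA and LA without FGF1 at day 32, all in the shallower set, the 3 pairs were at 0.228 to 0.546. The comparisons between media carried the block. In the shallower set the replicate block, with no left-out term, gave 57 genes. Without a replicate block the comparisons between media gave 0 each.

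For the test across media, edgeR with no filter gave 342 genes (2 of the 10) and DESeq2 14, against 0. For FGF1 in the shallower set, no filter gave 32, DESeq2 7 and the 5 left-out libraries alone 3, against 0. For left-out against kept libraries, no filter gave 214, DESeq2 152 and leaving out 1 library 31 to 70, against 57 (31 without day 32 LA replicate 1, 34 without day 32 DHA replicate 1). For DHA against LA, DESeq2 gave 10. For DHA against BSA, no filter, voom and transcript sums gave 1 each, DESeq2 2, and leaving out 1 library 0 to 1. For LA against BSA, no filter and voom gave 1 each, DESeq2 12, and leaving out 1 library 0 to 2 (2 without day 32 BSA replicate 2).

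For transcripts, 4925 calls became 2412 to 4993 without 1 library. The count was 2943 and 2634 without day 26 BSA replicates 1 and 2, 3254 without day 26 LA replicate 1, and 2412, 2445 and 2747 without replicate 2 with FGF1 on BSA, LA and DHA. Of the named transcripts 2 were called, 3 with no filter and 0 to 3 without 1 library.

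In the shallower set Fgfr4 had 0 to 19 counts, too few to be tested, and Fgf1 had 24 to 56. The comparison of FGF1 with no FGF1 rests on 2 libraries with FGF1.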
